A study of Mus musculus with 18 samples.

Results

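The genes described here are 40 secreted matrix proteins that are not collagens: glycoproteins, proteoglycans and their close partners, in the thyroid of Glis3KO2 mice. They were chosen by name, and every array probe whose accession maps to such a gene was taken, which gave 59 probes. All 40 genes were tested, among 17932 genes on the array. By textbook role they comprise 15 elastic fibre and microfibril genes, 11 matricellular genes, 7 proteoglycans, 5 adhesive glycoproteins and matrix adaptors, and 2 genes of collagen maturation.

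Gene expression was measured on single-colour Agilent arrays in whole thyroid from C57BL/6 mice aged 1 month. The 4 groups were Glis3KO2 (KO2) and wild-type (WT) mice fed a low-iodine diet for 6 days, with 4 arrays each, and KO2 and WT mice fed a normal diet, with 5 arrays each. KO2 mice carry a targeted gene for Glis3, a zinc finger transcription factor. The promoter or Cre driver, if any, the deleted part of the gene, the sex of the mice and whether thyroids were pooled are not given in the sources used here. Nothing states that arrays of a group came from separate animals, so p-values measure the spread between these samples, which may be technical.

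Matrix outside cells is built from collagen fibres, elastic fibres and a hydrated filling of proteoglycans. Elastic fibres have a core of cross-linked elastin on a scaffold of fibrillin microfibrils, with fibulins and latent TGF-beta binding proteins (Ltbp) attached. Matricellular proteins such as periostin, osteopontin and the thrombospondins act mainly on cells and on matrix assembly and contribute little to bulk structure. In the thyroid, matrix surrounds each follicle and the dense capillary net that serves it. It is made mostly by stromal and vascular cells.

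A level here is the log2 processed signal of a gene's brightest probe minus the 75th percentile of its array. It can be compared between arrays for a gene, and not between genes. Differences are KO2 minus WT on this log2 scale, with the standard error (SE) of a limma model over all 18 arrays and Benjamini-Hochberg adjusted p-values over all 17932 genes. A gene is said to have fallen or risen only with an adjusted p under 0.05. The share of spots well above background ran from 60.1% to 90.6% of an array. WT low-iodine replicate 2 stood apart, with a median signal of 192 against 45.0 to 85.5 on the others. Precision is limited by how few arrays there are. All low-iodine arrays lie on slides 4 and 5 and all normal-diet arrays on slides 1, 2 and 3, read on another scanner, so an effect of diet and one of array set cannot be told apart. Both genotypes share every slide in equal numbers. The Glis3 probe read −4.06 to −1.49 in KO2 and −1.60 to −0.74 in WT on the low-iodine diet, a difference of −1.36 (SE 0.47, adjusted p = 0.0619). It read −5.46 to −4.16 in KO2 and −6.08 to −4.79 in WT on the normal diet, a difference of 0.45 (SE 0.42, adjusted p = 0.732). Whether this probe lies in the deleted part is not given, so it does not check the labels. The thyroid label was checked against Tg, the thyroglobulin gene, which was well above background on all 18 arrays.

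On the low-iodine diet most of the matrix genes were lower in KO2 thyroids. Of the 40 genes, 23 fell and 0 rose, against a background of 7.18% of all tested genes that fell and 7.81% that rose. At an unadjusted p under 0.05, limma gave 24 lower (13% of all genes) and 1 higher (15.1% of all genes). The median difference of the 40 genes was −1.16, against −0.02 over all genes tested, and 35 of the 40 lay below 0. The KO2 and WT arrays did not overlap, with KO2 lower, for 24 of the 40 genes (background 9.1%), and for 1 gene, Ltbp2, KO2 was higher without overlap (background 10.6%). Each of the 23 genes was lower in KO2 on both low-iodine slides. They were called from these same arrays, so this is no separate check. Without WT low-iodine replicate 2, 21 genes fell and the median was −1.16. Of the 17 genes without a call, Fbn2, Ltbp1, Tnc, Sparcl1, Thbs3 and Vtn changed sign under another scaling or choice of probe, and no called gene did. In bulk thyroid RNA, fewer cells of a type and less RNA per cell cannot be told apart.

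With normal feed 2 of the 40 genes fell, Mfap4 and Matn2, against 0.876% of all genes, and 0 rose, against 0.513%. At an unadjusted p under 0.05, limma gave 15 lower (6.86% of all genes) and 1 higher (6.31%). The median difference was −0.41, against 0.05 over all genes, and the arrays did not overlap for 4 genes, Mfap4, Sparc, Pcolce and Serpinh1, with KO2 lower (background 1.63%). The count of 2 went to 7 without KO2 normal replicate 4. It was 1 without WT replicate 2, 3, 4 or 5 or KO2 replicate 1, 3 or 5 of that diet, and 4 without KO2 low-iodine replicate 2.

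The genotype by diet interaction tests whether the KO2 minus WT difference itself differed between the diets. It was negative with an adjusted p under 0.05 for 6 of the 40 genes, Eln, Fbn1, Fbln2, Postn, Sparc and Bgn, against 0.864% of all genes. It was positive for 0 of them by limma, against 0.357% of all genes. At an unadjusted p under 0.05 it was negative for 17 of them (7.57% of all genes) and positive for 0 (6.7%). With median scaling only Fbln2 and Postn of the 6 passed, while Eln, Fbn1, Sparc and Bgn had adjusted p of 0.066, 0.111, 0.214 and 0.0561. Its median over the 40 genes was −0.53, and over all genes −0.04. Because the diets were run on different array sets, a dependence of the genotype difference on diet and on array set cannot be told apart.

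**Figure D1:**
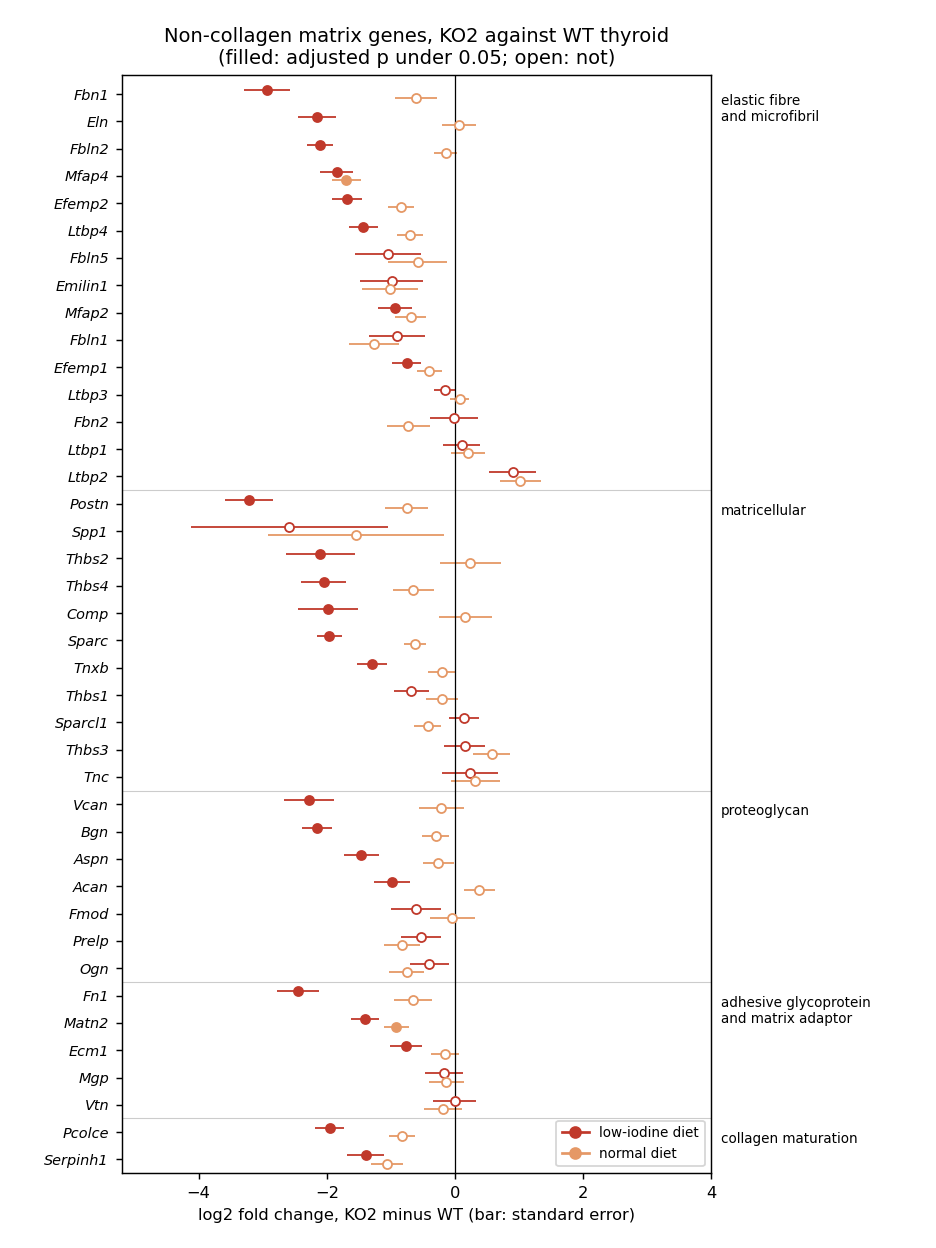
Log2 fold change (KO2 minus WT, with SE bars) of all 40 matrix genes on the low-iodine and the normal diet, grouped by class. Filled points passed an adjusted p of 0.05. On the low-iodine diet 23 points are filled, all left of 0, and on the normal diet only Mfap4 and Matn2 are.

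Of the elastic fibre and microfibril class, 8 of the 15 genes fell on the low-iodine diet, with a class median of −0.99. The fibrillin gene Fbn1, the elastin gene Eln and the fibulin gene Fbln2 fell most within the class. Fbn1 encodes the main fibrillin of microfibrils. Its level was −1.14, −2.05, −2.86 and −1.23 in KO2 thyroids on the low-iodine diet, against 1.69, 0.79, 1.22 and 0.76 in WT thyroids. Every KO2 array lay below every WT array. The difference was −2.93 (SE 0.36, adjusted p = 6.58e-05), a signal 7.63-fold lower in KO2. On the normal diet Fbn1 read −2.52, −1.79, −1.70, −1.34 and −1.0 in KO2 thyroids, against −0.99, −1.32, −0.79, −1.37 and −0.85 in WT thyroids, where the arrays overlapped and the difference was −0.60 (SE 0.33, adjusted p = 0.452). The interaction was −2.33 (SE 0.49, adjusted p = 0.0272). It missed the threshold without KO2 low-iodine replicate 2, WT low-iodine replicate 1 or 3, or WT normal replicate 2 or 4, with adjusted p of 0.0503 to 0.0607. With median scaling (0.111) and with same-numbered arrays as a block (0.0502) it also missed the threshold. A dimmer Fbn1 probe gave −3.14 on the low-iodine diet.

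Eln encodes tropoelastin, the soluble precursor of the elastic core. It read −1.35, −0.72, −0.73 and −1.08 in KO2 thyroids on the low-iodine diet, against 1.46, 0.86, 1.38 and 1.03 in WT thyroids, a clear separation of the genotypes. The difference was −2.15 (SE 0.30, adjusted p = 0.000158). With normal feed Eln was −2.15, −1.29, −1.22, −2.15 and −1.18 in KO2 thyroids, against −2.29, −1.59, −0.87, −1.83 and −1.68 in WT thyroids. There the genotypes overlapped throughout, at −1.60 ± 0.51 in KO2 and −1.65 ± 0.51 in WT (SD, n = 5 each), and the difference was 0.06 (SE 0.26, adjusted p = 0.963). The interaction was −2.21 (SE 0.40, adjusted p = 0.0131).

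Fbln2, a fibulin that binds fibrillin and tropoelastin, varied little except in KO2 on low iodine. It read 0.08, −0.46, −1.26 and −0.72 in KO2 thyroids on the low-iodine diet, against 1.50, 1.47, 1.52 and 1.58 in WT thyroids. The WT values span a narrow band, and every KO2 value lies below it. Normal-diet levels were 1.08, 1.16, 1.46, 1.31 and 1.28 in KO2 thyroids, against 1.35, 1.50, 1.51, 1.33 and 1.34 in WT thyroids, and these overlapped. The difference was −2.10 (SE 0.20, adjusted p = 8.8e-06) on low iodine and −0.15 (SE 0.18, adjusted p = 0.815) on the normal diet. Its interaction of −1.96 (SE 0.27, adjusted p = 0.00294) kept its call in all 30 alternatives tried, which none of the other 5 did.

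Mfap4, a microfibril-associated glycoprotein, was lower on both diets. Its low-iodine levels were −1.79, −2.03, −1.57 and −1.75 in KO2 thyroids on the low-iodine diet, against 0.23, −0.05, 0.55 and −0.47 in WT thyroids. Its normal-diet levels were −2.03, −2.09, −2.58, −1.44 and −1.76 in KO2 thyroids, against −0.73, 0.05, 0.10, −0.30 and −0.55 in WT thyroids. No KO2 array reached a WT array on either diet. The difference was −1.85 (SE 0.26, adjusted p = 0.000179) on low iodine and −1.70 (SE 0.23, adjusted p = 0.00337) on the normal diet, and the interaction was −0.15 (SE 0.35, adjusted p = 0.883). Within slides 1, 2 and 3, of which slide 1 holds 1 array of each genotype, the normal-diet difference was −1.36, −2.09 and −1.47. A fit of only the normal-diet arrays lost the normal-diet call (adjusted p of 0.0594).

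Efemp2, also called fibulin-4, brings the cross-linking enzyme lysyl oxidase to elastin. It measured −0.12, 0.01, −0.59 and −0.08 in KO2 thyroids on the low-iodine diet, against 1.48, 1.18, 1.78 and 1.51 in WT thyroids. The genotypes did not overlap, and the difference was −1.68 (SE 0.23, adjusted p = 0.000132). The normal-diet values were 2.97, 3.03, 2.72, 3.76 and 2.54 in KO2 thyroids, against 3.57, 3.99, 3.97, 3.99 and 3.72 in WT thyroids. KO2 replicate 4 reached into the WT range there. The difference of −0.84 (SE 0.20, adjusted p = 0.0504) narrowly missed the threshold. Without that array it passed, with an adjusted p of 0.00274.

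Fbn2, the second fibrillin, had the largest p of the class on low iodine. It read 0.17, −0.23, −0.35 and 0.17 in KO2 thyroids on the low-iodine diet, against 0.05, 0.26, −0.22 and −0.28 in WT thyroids, and the groups lay on top of each other. The difference was −0.01 (SE 0.37, adjusted p = 0.99). On the normal diet it read −5.71, −5.53, −4.97, −6.95 and −4.91 in KO2 thyroids, against −5.65, −5.04, −4.14, −4.91 and −4.71 in WT thyroids, with only 3 of 5 KO2 arrays well above background.

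Of the remaining class members, Ltbp4, Mfap2 and Efemp1 fell on low iodine, with log2 differences of −1.43, −0.93 and −0.75 and adjusted p of 0.000488, 0.0261 and 0.0327. Ltbp4 is needed for elastic fibre assembly in mice, and Mfap2 is a microfibril glycoprotein. Mfap2 rests on its brightest probe, since its second probe gave −0.30 (adjusted p = 0.641 in a fit of single probes). The Mfap2 call was lost without KO2 replicate 2 or 3 or WT replicate 1 or 4 of that diet (adjusted p of 0.0561 to 0.0744). It was also lost with median scaling (0.149), the mean of all probes (0.0963), normexp background correction (0.0825) and quantile normalization (0.0524). The Efemp1 call was lost without KO2 replicate 2 or 3 or WT replicate 1, 3 or 4 (0.0698 to 0.0864). Median scaling (0.256), a fit of only the compared arrays (0.0603) and slide as a fixed block (0.0519) also lost it.

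Fbln1, Emilin1 and Fbln5 gave −0.90, −0.99 and −1.04 without passing (adjusted p of 0.191, 0.2 and 0.201). Without a single array these moved to −0.57 for Fbln1 (KO2 replicate 2), and to −0.51 for Emilin1 and −0.66 for Fbln5 (WT replicate 2). Fbln5 was dim, well above background on 1 of 4 KO2 and 4 of 4 WT arrays. Among the other Ltbp genes, Ltbp1 was at 0.11 and Ltbp3 at −0.16, both with overlapping arrays. Ltbp2, which binds fibrillin but not latent TGF-beta, ran the other way. It read 0.02, 0.06, 0.43 and 0.19 in KO2 thyroids on the low-iodine diet, against −0.64, −0.22, −0.70 and −1.33 in WT thyroids, with no overlap. The difference of 0.90 (SE 0.37, adjusted p = 0.114) did not pass, and on the normal diet it was 1.02 (SE 0.33, adjusted p = 0.15).

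**Figure D2:**
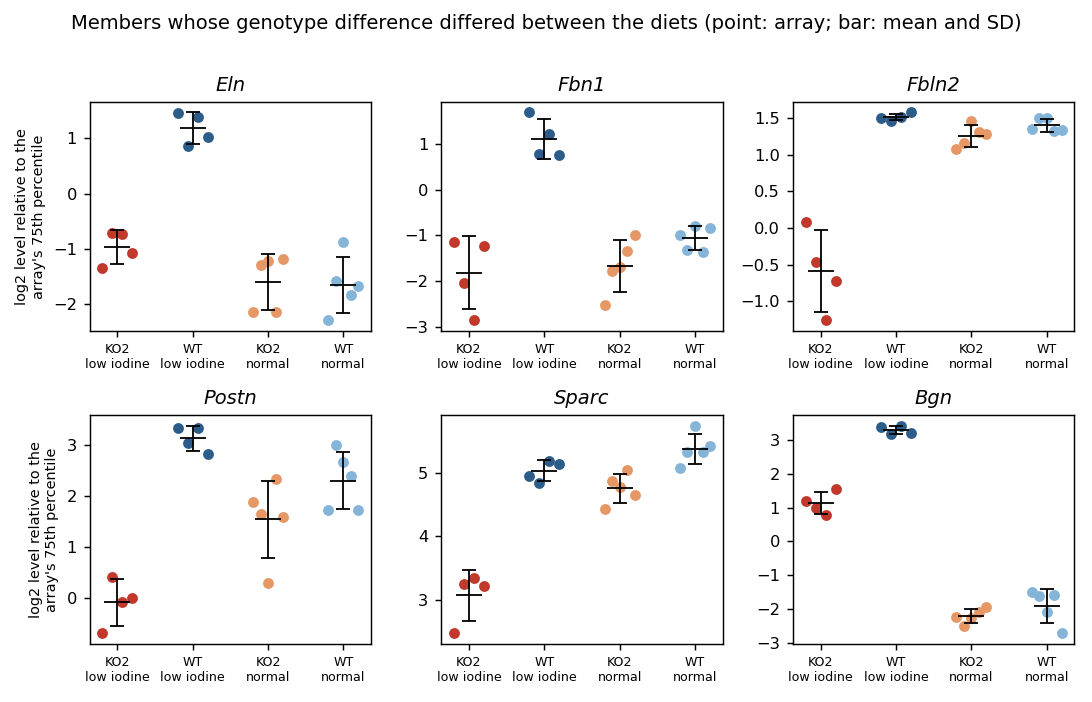
Level of the 6 genes with an interaction past the threshold, log2 relative to each array's 75th percentile, with a point per array and the mean and SD of each group (n = 4 per low-iodine group, n = 5 per normal-diet group). In each panel the KO2 low-iodine points lie wholly below the WT low-iodine points, while on the normal diet the genotypes overlap for all but Sparc.

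In the matricellular class 6 of the 11 genes fell on the low-iodine diet, Postn, Sparc, Thbs2, Thbs4, Comp and Tnxb, and the class median was −1.96, the most negative of the 5 classes. That median is the value of Sparc on its brighter probe, and the second Sparc probe gave −0.48. With the second probe the middle gene would be Tnxb at −1.29, less negative than the collagen maturation median of −1.67. The rank of the class thus depends on 1 probe. Postn encodes periostin, an integrin-binding protein made by fibroblasts. Its level was −0.69, 0.41, −0.07 and 0.01 in KO2 thyroids on the low-iodine diet, against 3.33, 3.03, 3.32 and 2.82 in WT thyroids. KO2 and WT differed by more than their whole ranges. The difference was −3.21 (SE 0.37, adjusted p = 3.83e-05), a signal 9.26-fold lower in KO2 and the most negative difference of the 40. Its normal-diet levels were 1.87, 1.64, 0.30, 2.32 and 1.58 in KO2 thyroids, against 1.72, 2.99, 2.67, 2.38 and 1.73 in WT thyroids, with overlap and a difference of −0.75 (SE 0.33, adjusted p = 0.344). The interaction was −2.46 (SE 0.50, adjusted p = 0.0242), and it missed the threshold without KO2 low-iodine replicate 1 (adjusted p of 0.0528) or WT low-iodine replicate 1 or 3 (0.0545 and 0.0519). With same-numbered arrays as a block it also missed (0.0765).

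Sparc is a collagen-binding glycoprotein. It read 2.47, 3.25, 3.34 and 3.21 in KO2 thyroids on the low-iodine diet, against 4.94, 4.84, 5.19 and 5.14 in WT thyroids. KO2 replicate 1 was the lowest, and none of the KO2 arrays came near WT. The normal-diet values were 4.43, 4.87, 4.78, 5.04 and 4.65 in KO2 thyroids, against 5.08, 5.32, 5.74, 5.32 and 5.42 in WT thyroids, and the lowest WT array lay just above the highest KO2 array. The difference was −1.96 (SE 0.20, adjusted p = 1.21e-05) on low iodine and −0.62 (SE 0.18, adjusted p = 0.101) on the normal diet, and the interaction was −1.34 (SE 0.27, adjusted p = 0.0232). The 2 Sparc probes disagreed. The second, nearly as bright, gave −0.48 on low iodine (adjusted p = 0.108 in a fit of single probes) and an interaction of 0.12 (adjusted p = 0.877), so both Sparc calls depend on the probe.

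The thrombospondins are large calcium-binding glycoproteins that Comp, cartilage oligomeric matrix protein, also belongs to. Thbs4 read −2.31, −3.12, −2.80 and −2.65 in KO2 thyroids on the low-iodine diet, against −0.05, −0.63, −0.27 and −1.73 in WT thyroids. It did not overlap, and the difference was −2.05 (SE 0.35, adjusted p = 0.00103). Its normal-diet values of −1.44, −1.02, −1.36, −0.85 and −0.53 in KO2 thyroids, against −0.61, −0.53, 0.47, −1.08 and −0.20 in WT thyroids overlapped (difference −0.65 (SE 0.32, adjusted p = 0.401)). A second, dimmer Thbs4 probe gave −1.18 on low iodine (adjusted p = 0.0634 in a fit of single probes).

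Thbs2 and Comp are described with their values because they fell, a choice made after their values were seen. Thbs2 measured −3.93, −3.19, −3.73 and −6.49 in KO2 thyroids on the low-iodine diet, against −2.66, −2.05, −1.34 and −2.90 in WT thyroids. KO2 replicate 4 lay far below the rest and was not well above background. The difference was −2.10 (SE 0.54, adjusted p = 0.0146). It was −1.38 without KO2 replicate 4, and without WT replicate 3 the adjusted p was 0.0512. Comp measured −5.59, −2.85, −5.47 and −3.76 in KO2 thyroids on the low-iodine diet, against −2.70, −1.57, −2.96 and −2.51 in WT thyroids. Its KO2 arrays split into a low and a high pair, only 2 of 4 were well above background, and KO2 replicate 2 overlapped WT. The difference was −1.98 (SE 0.46, adjusted p = 0.00837), and its size is uncertain with those arrays at background. With only the 8 low-iodine arrays fitted, neither Thbs2 nor Comp passed (adjusted p of 0.106 and 0.0946).

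Thbs3 had the largest p of the class. It read 1.00, 1.19, 1.60 and 0.64 in KO2 thyroids on the low-iodine diet, against 1.10, 0.44, 1.17 and 1.12 in WT thyroids, and the groups overlapped. The difference was 0.15 (SE 0.32, adjusted p = 0.816). The normal-diet values were 3.09, 3.44, 3.70, 2.41 and 3.63 in KO2 thyroids, against 3.03, 2.11, 2.25, 2.65 and 3.37 in WT thyroids (difference 0.57 (SE 0.29, adjusted p = 0.411)). Thbs1, the angiogenesis inhibitor, was at −0.68 (SE 0.27, adjusted p = 0.109) on low iodine. Thbs1 has 3 probes, all negative on that diet.

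**Figure D3:**
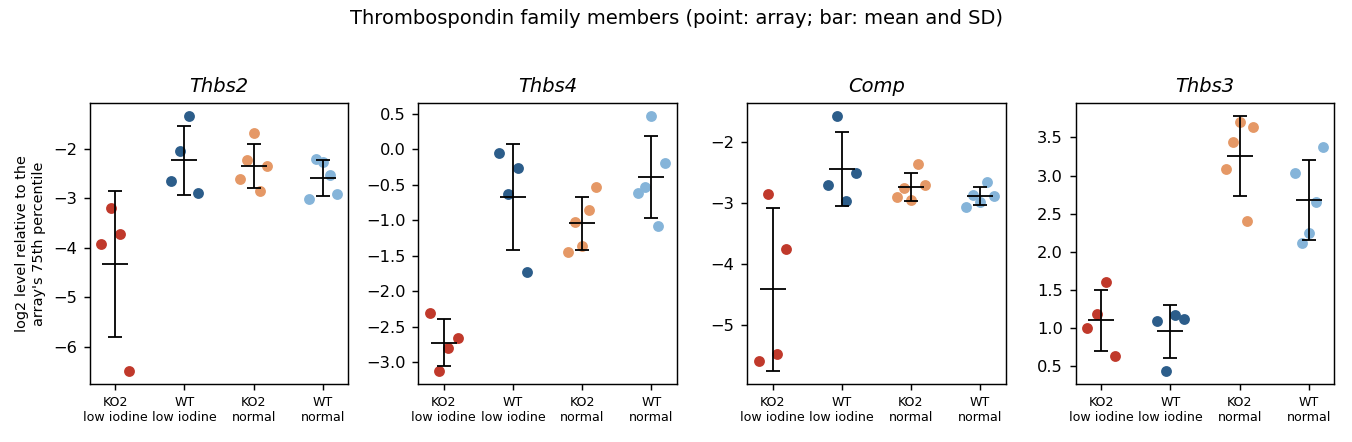
Level of Thbs2, Thbs4, Comp and Thbs3, log2 relative to each array's 75th percentile, with a point per array and the mean and SD of each group (n = 4 and n = 5). The means of Thbs2, Thbs4 and Comp are lowest in KO2 thyroids on low iodine, with a wide spread for Thbs2 and Comp, while Thbs3 overlaps between the genotypes on both diets. The genes shown were picked after their values were seen.

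The tenascin Tnxb, which binds fibrillar collagen, fell by 1.29 on the log2 scale (SE 0.24, adjusted p = 0.00164), with no overlap. A dimmer Tnxb probe gave −1.07 (adjusted p = 0.0854 in a fit of single probes). The tenascin Tnc, known from injured and developing tissue, was at 0.23 (SE 0.43, adjusted p = 0.786). The Sparc relative Sparcl1 was at 0.14 (SE 0.23, adjusted p = 0.769).

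Spp1, osteopontin, was the least even of the 40, and its values are given although it passed no test, a choice made after they were seen. It read −6.92, 0.91, 0.76 and 1.28 in KO2 thyroids on the low-iodine diet, against 1.21, 2.01, 1.95 and 1.19 in WT thyroids. Its normal-diet values were 3.07, 3.30, −1.74, 4.33 and 3.75 in KO2 thyroids, against 2.58, 4.88, 5.21, 4.74 and 3.03 in WT thyroids. A single KO2 array on each diet, low-iodine replicate 1 and normal replicate 3, lay far below the rest. The difference was −2.58 (SE 1.53, adjusted p = 0.306) on low iodine, where it was −0.61 without KO2 replicate 1, and −1.55 (SE 1.37, adjusted p = 0.712) on the normal diet. Parathyroid tissue can travel with dissected thyroid. The summed level of the parathyroid markers Pth, Gcm2 and Casr was 1.33 and 1.64 on those 2 KO2 arrays, and from 5.65 to 8.87 on the other 16. The part of parathyroid tissue in the Spp1 values was not tested.

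**Figure D4:**
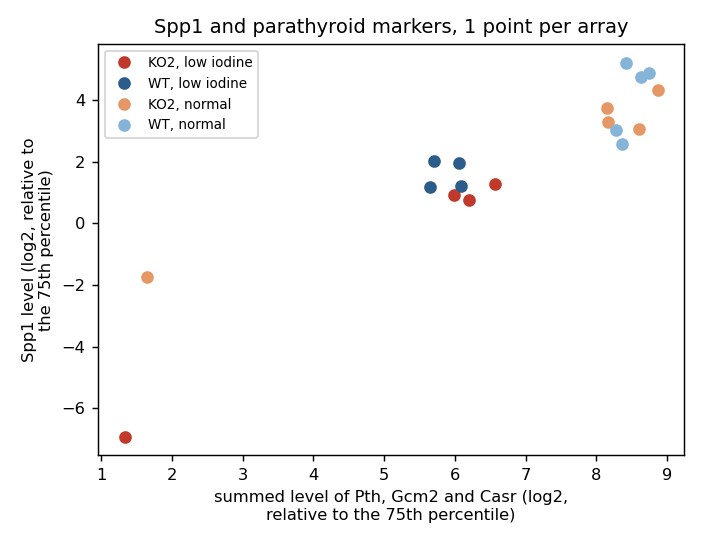
Spp1 level against the summed level of 3 parathyroid markers, both log2 relative to the array's 75th percentile, with a point per array coloured by group. The 2 arrays with a summed marker level under 2 are a KO2 low-iodine array with Spp1 at −6.92 and a KO2 normal-diet array with Spp1 at −1.74, below all other arrays. Spp1 was chosen for display after its values were seen.

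The proteoglycans carry long sugar chains or sit on collagen fibrils as small leucine-rich proteins. On the low-iodine diet 4 of the 7 fell, Bgn, Vcan, Aspn and Acan, the class median was −0.98 and all 7 lay below 0. Bgn, biglycan, is a small leucine-rich proteoglycan that binds collagen. Its level was 1.20, 1.00, 0.79 and 1.56 in KO2 thyroids on the low-iodine diet, against 3.37, 3.18, 3.42 and 3.20 in WT thyroids. The genotypes stood well apart. Bgn in normally fed mice read −2.23, −2.49, −2.26, −2.10 and −1.95 in KO2 thyroids, against −1.50, −1.62, −2.09, −1.60 and −2.72 in WT thyroids, with overlap. The difference was −2.16 (SE 0.24, adjusted p = 2.6e-05) on low iodine and −0.30 (SE 0.21, adjusted p = 0.614) on the normal diet. The interaction was −1.86 (SE 0.32, adjusted p = 0.00959).

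Vcan, versican, is a large hyaluronan-binding proteoglycan of loose connective tissue. It read −3.66, −4.71, −3.72 and −4.76 in KO2 thyroids on the low-iodine diet, against −1.52, −0.94, −2.27 and −3.04 in WT thyroids. No KO2 array reached WT, and 3 of 4 KO2 arrays were well above background. The difference was −2.27 (SE 0.39, adjusted p = 0.000975). Normal-diet values of −5.21, −5.37, −5.31, −5.49 and −6.11 in KO2 thyroids, against −5.32, −4.91, −5.28, −4.99 and −5.94 in WT thyroids overlapped and were dim, with 2 of 5 KO2 arrays well above background. Its interaction was −2.06 (SE 0.52, adjusted p = 0.0657). Of its 3 dimmer probes, 2 were well above background on 7 of the 18 arrays and the last was too dim to test. They gave −2.92 and −0.68 on low iodine, with interactions of −3.71 and −1.32 (adjusted p of 0.00237 and 0.377 in a fit of single probes).

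Aspn, asporin, a small leucine-rich proteoglycan, read −0.53, −1.22, −0.98 and −0.48 in KO2 thyroids on the low-iodine diet, against 1.19, 0.52, 0.59 and 0.33 in WT thyroids. The groups did not overlap, and the difference was −1.46 (SE 0.28, adjusted p = 0.00207). Its normal-diet values of −1.78, −0.60, −0.93, −0.78 and −0.56 in KO2 thyroids, against −1.18, −0.50, −0.35, −0.48 and −0.85 in WT thyroids did overlap (difference −0.26 (SE 0.25, adjusted p = 0.741)). Acan, aggrecan, the large proteoglycan of cartilage, fell by 0.98 on the log2 scale (SE 0.27, adjusted p = 0.0234). That call was lost without KO2 replicate 3 or 4 or WT replicate 2 of that diet (adjusted p of 0.0501, 0.0835 and 0.0739). A fit of only the low-iodine arrays also lost it (0.0799).

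Ogn, osteoglycin, had the largest p among the proteoglycans. It read 0.18, 0.16, −0.65 and 0.43 in KO2 thyroids on the low-iodine diet, against 1.10, 0.43, 0.13 and 0.05 in WT thyroids, with overlap and a difference of −0.40 (SE 0.31, adjusted p = 0.463), or −0.17 without KO2 replicate 3 or WT replicate 1. Its normal-diet levels were 0.28, 1.22, 0.62, 1.60 and 1.48 in KO2 thyroids, against 1.55, 2.08, 1.88, 1.94 and 1.52 in WT thyroids, and the difference was −0.75 (SE 0.28, adjusted p = 0.224). Prelp and Fmod, both of the leucine-rich family, were at −0.53 and −0.61 on low iodine with adjusted p of 0.304 and 0.357. The Fmod difference was −0.04 without WT replicate 2. A dimmer Prelp probe gave −1.55 (adjusted p = 0.0064 in a fit of single probes), so the Prelp result depends on the probe.

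Of the 5 adhesive glycoproteins and matrix adaptors, Fn1, Matn2 and Ecm1 fell on low iodine, with a class median of −0.76. Fn1, fibronectin, links integrins to collagen. It read −3.04, −2.36, −2.13 and −2.58 in KO2 thyroids on the low-iodine diet, against 0.03, −0.47, 0.13 and 0.02 in WT thyroids. KO2 lay below WT on every array. The difference was −2.45 (SE 0.33, adjusted p = 0.000144), a signal 5.47-fold lower in KO2, and the 2 dimmer probes gave −1.70 and −1.97. The normal-diet values were −2.49, −2.04, −1.97, −1.63 and −1.16 in KO2 thyroids, against −0.34, −1.50, −1.01, −2.11 and −1.08 in WT thyroids, with overlap (difference −0.65 (SE 0.30, adjusted p = 0.362)). The interaction of −1.80 (SE 0.45, adjusted p = 0.0591) fell just outside the threshold. It passed without KO2 or WT normal replicate 1, with adjusted p of 0.0399 and 0.0309. With normexp background correction (0.000914) and quantile normalization (0.00817) it also passed. So it did with slide as a random block (0.0476) and with the filter on all 18 arrays (0.0378). In every other alternative it missed.

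Matn2, a matrilin that bridges matrix fibres, was called on both diets. It read −0.13, −0.63, −0.74 and −0.36 in KO2 thyroids on the low-iodine diet, against 1.05, 0.98, 0.65 and 1.07 in WT thyroids, without overlap. Its normal-diet values were −1.36, −0.60, −0.88, −0.24 and −0.88 in KO2 thyroids, against −0.31, 0.43, 0.21, 0.27 and 0.01 in WT thyroids. KO2 replicate 4 there slightly exceeded the lowest WT array. The difference was −1.40 (SE 0.22, adjusted p = 0.000519) on low iodine and −0.91 (SE 0.20, adjusted p = 0.0303) on the normal diet. Within slides 1, 2 and 3 the normal-diet difference was −0.29, −0.88 and −1.26. The normal-diet call was lost without KO2 replicate 1, 3 or 5 or WT replicate 2, 3, 4 or 5 (adjusted p of 0.0582 to 0.0807). It was also lost with median scaling (0.0698), quantile normalization (0.0599) and a fit of only the normal-diet arrays (0.105).

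Ecm1, a secreted matrix adaptor, read 1.92, 0.57, 0.54 and 1.24 in KO2 thyroids on the low-iodine diet, against 2.11, 1.57, 2.04 and 1.58 in WT thyroids. The groups overlapped through KO2 replicate 1. The difference of −0.76 (SE 0.25, adjusted p = 0.0496) lay at the threshold and missed it in 22 of 31 alternatives, 17 of them omissions of a single array. A second, dimmer Ecm1 probe gave −1.26 (adjusted p = 0.01 in a fit of single probes). Its normal-diet values were 1.71, 2.08, 2.22, 2.15 and 2.16 in KO2 thyroids, against 2.21, 2.42, 2.17, 2.10 and 2.20 in WT thyroids (difference −0.16 (SE 0.22, adjusted p = 0.845)). Vtn, vitronectin, had the largest p of the 40 and read −1.61, −1.90, −1.03 and −0.46 in KO2 thyroids on the low-iodine diet, against −1.23, −1.04, −1.20 and −1.51 in WT thyroids. The group means were −1.25 ± 0.64 in KO2 and −1.25 ± 0.20 in WT (SD, n = 4 each), and the difference was −0.01 (SE 0.33, adjusted p = 0.994). Mgp, an inhibitor of calcification, was at −0.17 (SE 0.30, adjusted p = 0.769).

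Both genes of collagen maturation fell on the low-iodine diet. Pcolce speeds the removal of the C-terminal propeptide from procollagen, and Serpinh1 is the collagen chaperone of the endoplasmic reticulum. Pcolce read 0.84, 0.05, 0.22 and 1.10 in KO2 thyroids on the low-iodine diet, against 2.63, 2.28, 2.63 and 2.47 in WT thyroids. Its normal-diet values were 3.09, 3.72, 3.75, 3.94 and 3.62 in KO2 thyroids, against 4.22, 4.78, 4.49, 4.39 and 4.37 in WT thyroids. The genotypes did not overlap on either diet. The difference was −1.95 (SE 0.23, adjusted p = 3.75e-05) on low iodine and −0.83 (SE 0.20, adjusted p = 0.055) on the normal diet. Serpinh1 read 2.88, 1.95, 2.20 and 2.97 in KO2 thyroids on the low-iodine diet, against 4.05, 3.67, 3.84 and 4.02 in WT thyroids. Its normal-diet levels were 3.23, 4.04, 3.37, 4.13 and 2.68 in KO2 thyroids, against 4.38, 4.63, 4.55, 4.82 and 4.37 in WT thyroids. Again no KO2 array reached a WT array. The difference was −1.40 (SE 0.29, adjusted p = 0.00376) on low iodine and −1.06 (SE 0.26, adjusted p = 0.0519) on the normal diet. The normal-diet values of both genes missed the threshold narrowly, and both passed without KO2 normal replicate 4 (adjusted p of 0.0269 for Pcolce and 0.0123 for Serpinh1).

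Set side by side, the classes overlapped in their low-iodine differences. Elastic fibre genes ran from −2.93 to 0.90, matricellular genes from −3.21 to 0.23 and proteoglycans from −2.27 to −0.40. The class medians of −0.99, −1.96 and −0.98 were not tested against each other. Within slide 4 those medians were −1.23, −2.05 and −1.29, and within slide 5 they were −1.07, −0.99 and −0.95. The more negative matricellular median was thus present on slide 4 and not on slide 5. Over both slides it was the value of the brighter Sparc probe, so it depends on the probe.

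**Figure D5:**
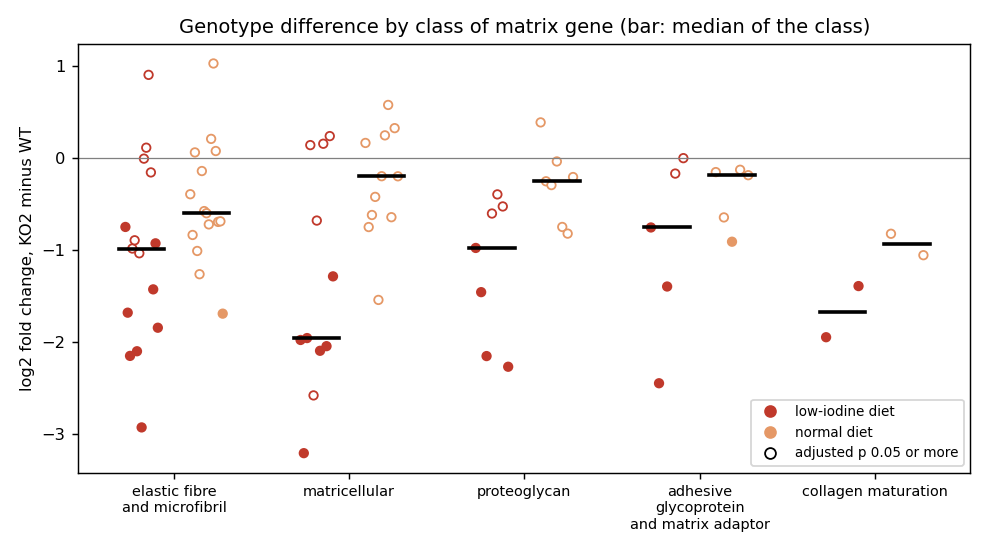
Log2 fold change (KO2 minus WT) of every gene by class and diet. Each point is a gene, open where the adjusted p was 0.05 or more, and the bar is the class median. On the low-iodine diet the medians run from −1.96 (matricellular) to −0.76 (adhesive glycoprotein and matrix adaptor).

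To show the DNA next to the genes whose genotype difference differed between the diets, the 250 bases before the annotated start are given for 5 of those 6 genes. They come from RefSeq on build GRCm38.p6, where 31 of the 40 genes have such a window. Fbn1 lies at chr2:125506439-125506688, minus strand, Fbln2 at chr6:91212514-91212763, plus strand, Postn at chr3:54359017-54359266, plus strand, Sparc at chr11:55420081-55420330, minus strand and Bgn at chrX:73483351-73483600, plus strand. Postn has 2 starts in the table, and the window of the first is shown. Sequences run 5′ to 3′ toward the gene, and capitals mark GC boxes (GGGCGG on either strand), to which Sp1-type factors bind.
Fbn1: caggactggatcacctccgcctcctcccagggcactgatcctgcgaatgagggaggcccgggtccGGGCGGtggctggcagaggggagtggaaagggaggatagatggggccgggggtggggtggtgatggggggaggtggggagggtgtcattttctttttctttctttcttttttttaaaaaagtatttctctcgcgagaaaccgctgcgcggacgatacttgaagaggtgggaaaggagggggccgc
Fbln2: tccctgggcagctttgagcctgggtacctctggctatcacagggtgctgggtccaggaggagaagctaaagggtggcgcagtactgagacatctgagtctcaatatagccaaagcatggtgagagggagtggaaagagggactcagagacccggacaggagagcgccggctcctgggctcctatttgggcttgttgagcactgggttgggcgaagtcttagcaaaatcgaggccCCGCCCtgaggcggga
Postn: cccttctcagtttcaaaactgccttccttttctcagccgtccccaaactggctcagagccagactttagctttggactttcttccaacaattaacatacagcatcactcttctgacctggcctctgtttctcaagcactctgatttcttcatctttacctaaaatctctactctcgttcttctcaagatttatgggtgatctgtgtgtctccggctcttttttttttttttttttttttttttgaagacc
Sparc: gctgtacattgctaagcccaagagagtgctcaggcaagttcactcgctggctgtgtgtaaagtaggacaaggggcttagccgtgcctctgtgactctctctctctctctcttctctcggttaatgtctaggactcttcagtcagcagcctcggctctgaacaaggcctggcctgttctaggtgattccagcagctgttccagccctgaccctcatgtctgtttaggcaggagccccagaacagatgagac
Bgn: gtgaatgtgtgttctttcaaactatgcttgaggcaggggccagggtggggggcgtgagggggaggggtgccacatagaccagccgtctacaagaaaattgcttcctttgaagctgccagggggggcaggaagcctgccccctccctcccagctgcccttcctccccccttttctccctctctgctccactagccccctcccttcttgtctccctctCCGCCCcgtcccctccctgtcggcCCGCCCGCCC

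The Fbn1 window holds 1 GC box, 185 bases before the start, the Fbln2 window 1, at 16 bases, and the Bgn window 3, at 34, 10 and 6 bases, the last of which overlaps its neighbour. The Postn and Sparc windows shown hold none. GC boxes occur in 18 of the 31 windowed genes and in 32.7% of all 32851 windows. A further 5 motifs were searched on both strands. None of them is in the 5 windows printed, though the window of the other Postn start, not shown, holds a TATA box. The core of the site described for Glis proteins, TGGGGGGT, is in 1 of the 31 genes, Thbs3, and in 1.36% of all windows. The TATA box TATAAA is in 8 (12.4%), the CCAAT box in 11 (33.8%), the AP-1 site TGANTCA in 3 (6.75%) and the TEAD site GGAATG in 5 (12.6%). A gene was counted if any of its starts held the motif, while the shares are of single windows. Counts and shares are thus on unlike units, and a gene with several starts has more chances to be counted. These are matches of letters and not measured sites.

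Other matrix glycoproteins and proteoglycans were examined as a second list, of which 58 of 65 genes were measured. On the low-iodine diet 11 fell and 2 rose (7.18% and 7.81% of all genes), with a median of −0.47. Those with the smallest p were Fstl1, a secreted relative of Sparc, at −2.62 (SE 0.24, adjusted p = 5.36e-06), Tnfaip6, a hyaluronan-binding protein, at −2.21 (SE 0.25, adjusted p = 3.35e-05), Mfap5, a microfibril glycoprotein, at −2.18 (SE 0.25, adjusted p = 3.59e-05), and the matricellular gene Ccn3 at −1.48 (SE 0.21, adjusted p = 0.000197). The 2 that rose, named after their values were seen, were Dcn, decorin, at 0.99 (SE 0.23, adjusted p = 0.00762), and Mmrn1, a relative of Emilin1, at 0.91 (SE 0.27, adjusted p = 0.0337). In normally fed mice 4 fell and 1 rose (0.876% and 0.513% of all genes), with a median of −0.29. The interaction passed for 4, all negative (0.864% of all genes).

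Matrix receptors, the cell surface partners of these proteins, were measured for 27 of 30 genes. On low iodine 13 fell and 0 rose (7.18% and 7.81% of all genes), with a median of −0.78. The smallest p belonged to Itga5, the fibronectin receptor subunit, at −1.68 (SE 0.22, adjusted p = 0.000116), the syndecan Sdc1 at −1.65 (SE 0.24, adjusted p = 0.000266), the laminin receptor subunit Itga6 at −0.88 (SE 0.13, adjusted p = 0.000286) and the collagen receptor subunit Itga2 at −2.20 (SE 0.39, adjusted p = 0.00129). Itga2 was well above background on 2 of 4 KO2 and 4 of 4 WT arrays. Limma called 0 receptors on the normal diet, with 6 lower and 2 higher at an unadjusted p under 0.05 (6.86% and 6.31% of all genes). The interaction was negative for 3 (0.864% of all genes), Itga5, Itgb1 and Itgb3, chosen by their call.

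Markers of cells that make matrix were examined beside these genes on low iodine, where 7.18% of all genes were lower and 7.81% higher. The fibroblast list gave 4 lower and 1 higher of 8, and its summed log2 level was 3.96 to 4.66 in KO2 and 4.55 to 5.00 in WT. Of its defining markers, Pdgfra was at 0.41 (adjusted p = 0.337) and Dcn rose. With normal feed 2 of these 8 fibroblast markers were lower (0.876% of all genes). The list median was −1.16 there and −1.17 on low iodine. At an unadjusted p under 0.05, 6 of 8 were lower on each diet (6.86% of all genes on normal feed, 13% on low iodine). At that threshold 1 was higher on low iodine and 0 on normal feed. The interaction called 0 of the 8. On low iodine the endothelial list gave 5 lower of 8, including the defining Pecam1 and Cdh5 at −1.23 and −1.47. Its summed level was 4.32 to 4.52 in KO2 and 5.19 to 5.38 in WT. With normal feed 0 of these 8 endothelial markers passed, also at an unadjusted p under 0.05 (6.86% lower and 6.31% higher of all genes). The endothelial list median was 0.00 there and −0.89 on low iodine. For 2 of the 8 the interaction was negative (0.864% of all genes), and for 5 at an unadjusted p under 0.05 (7.57%). Limma gave 0 interaction calls in the other 13 marker lists. The pericyte and smooth muscle list gave 2 lower of 9, with 5.47 to 5.65 in KO2 and 5.82 to 6.19 in WT. Of its defining markers, Rgs5 was at −1.22 (adjusted p = 0.0487) and Myh11 at −0.41 (adjusted p = 0.35). The part of these cells in the matrix results was not tested.

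Cartilage and airway lie next to the thyroid and can be caught in a dissection. The background on low iodine is again 7.18% of all genes lower and 7.81% higher. The chondrocyte list gave 2 lower of 11, Cnmd at −3.37 and its defining marker Col2a1 at −2.86, and its summed level was 3.24 to 3.71 in KO2 and 4.19 to 4.53 in WT on low iodine. On the normal diet Col2a1 was at −1.92 (adjusted p = 0.0162). Acan and Comp, typical of cartilage, lie among the genes that fell on low iodine. On the normal diet they were at 0.38 and 0.16, without a call. The summed chondrocyte level on the normal diet was 3.64 to 4.45 in KO2 and 3.88 to 4.43 in WT. On low iodine the airway list gave 2 lower of 6, Dnah5 at −3.25 and the defining Foxj1 at −2.07. Its other defining marker, Scgb1a1, was at −1.22 (adjusted p = 0.604). The summed airway level was 4.47 to 4.72 in KO2 and 4.55 to 5.05 in WT. The follicular list gave 1 higher of 6, Nkx2-1, with 7.62 to 8.05 in KO2 and 7.27 to 7.77 in WT, and the C cell list 2 higher of 5, Calca and Scg2. On the normal diet, the diet of the Mfap4 and Matn2 calls, the follicular list gave 2 higher of 6, with a summed level of 9.38 to 9.69 in KO2 and 9.09 to 9.38 in WT. There the thymus list gave 1 lower of 8, Psmb11, and the tendon list 1 higher of 3, Scx. Over all genes 0.876% were lower and 0.513% higher on that diet. Limma called 0 airway genes there, though 4 of 6 were lower and 1 higher at an unadjusted p under 0.05 (6.86% and 6.31% of all genes). Their summed level was 4.59 to 7.02 in KO2 and 5.17 to 6.04 in WT. Lists for macrophage, tendon, skeletal muscle, fat, thymus, parathyroid and Schwann cells had 0 calls by limma on low iodine. Of their 41 genes, 4 were lower and 2 higher at an unadjusted p under 0.05 (13% and 15.1% of all genes). Among the 4 lower genes, 3 belong to the macrophage list of 8, whose median was −0.65. Both higher genes belong to the fat list of 6, whose median was 0.75. The skeletal muscle list varied widely within groups, with a summed level of 0.25 to 5.47 in KO2 and 1.18 to 6.62 in WT. The defining markers measured were well above background on all 8 low-iodine arrays, except the thymus gene Psmb11, which was so on 1 of 4 KO2 and 3 of 4 WT arrays. The part of neighbouring tissue in these results was not tested.

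Between the diets, low iodine against normal, 15 of the 40 genes were lower and 14 higher in WT with a median of 0.12, or −0.86 with median scaling, and 23 were lower and 7 higher in KO2 with a median of −0.99. Over all genes 75.9% in WT and 74.4% in KO2 passed in either direction. The totals of 29 genes (72.5%) in WT and 30 (75%) in KO2 lie near that background. By direction, 6541 of all 17932 genes were lower and 7063 higher in WT, with a median of 0.08. In KO2 6616 were lower and 6718 higher, with a median of 0.01. The 40 genes thus leaned lower in KO2 than all genes did. Here diet, slide, scanner and software release change together and cannot be told apart.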

How the data were processed

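RNA of whole thyroid was read on 18 single-colour Agilent arrays. The deposited intensity used for each spot is the processed signal, background-subtracted by Agilent Feature Extraction version 12 per the submitters' processing notes (releases 12.0.0.7 for the normal diet and 12.0.3.1 for low iodine, per the file headers). The deposited summary table held the same intensity values (ratio 1). Weaning was at 3 weeks, per the labels' protocols, and total RNA was amplified before labelling, which may alter relative levels.

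Control spots and spots flagged as outliers were left out, spots of a probe were averaged, and log2 of the processed signal minus the array's 75th percentile over non-control probes was taken. No spot was saturated. Of 41174 probes, 28223 (68.5%) were matched by accession to a gene of the GRCm38.p6 table, 12951 to none, and 82 with every spot flagged on an array were dropped. A probe was kept if 4 or more of the 18 arrays read it well above background (26523 named probes), and the brightest stood for each gene. Of the 40 genes described, 25 had 1 probe and 15 had several. The array annotation names another build, so no gene coordinates were taken from it.

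A limma model (version 3.58.1, R 4.3.3) of the 4 group means was fitted over 17932 genes, with adjusted p under 0.05 as the threshold, and tested on simulated data. Promoter windows are RefSeq's. The members and lists were chosen with earlier results of these data known, as was the rule for naming genes: values on every array for the 3 genes of each class (2 for collagen maturation) with the smallest p on low iodine, for genes past the threshold on the normal diet or in the interaction (at most 3 per class), and for the gene of each class with the largest p, plus up to 4 genes of each other list. Old symbols of Ccn3 and Ccn5 and their relatives were updated.

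Replicate numbers are shared by the groups, and nothing states what they mean. The correlation of same-numbered WT and KO2 arrays, as deviations from their group means, was −0.038 to 0.322 on the normal diet and 0.0342 to 0.132 on low iodine, so the numbers were not treated as pairs. Alternatives were other scalings, background correction, filters, probe choices, slide and replicate blocks, a fit of only the compared arrays, and omission of each array. The planned background correction on mean signals was run on median signals, as the files were found to hold these.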

Additional observations from a re-analysis of the deposited data

Results flagged for a closer look

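Levels of the 40 genes were examined in each group of 4 or 5 arrays for a single array far from the rest, by Dixon's criterion. Of 160 groups, 12 held such an array, and chance alone flags about 1 in 20. On WT low-iodine replicate 2, the array with the highest median signal, Emilin1 (−1.61, nearest other array −3.49) and Fmod (−2.43, nearest −4.61) were high, and Ltbp3 (3.31, nearest 3.55) and Thbs3 (0.44, nearest 1.10) were low. KO2 low-iodine replicate 1 was low for Sparc (2.47, nearest 3.21) and for Spp1 (−6.92, nearest 0.76). Spp1 was also low on KO2 normal replicate 3 (−1.74, nearest 3.07). Both arrays had low parathyroid markers, and the part of parathyroid tissue was not tested. On KO2 normal replicate 1, Mfap2 (−0.21, nearest 0.26) and Ecm1 (1.71, nearest 2.08) were low. Sparcl1 was high on KO2 low-iodine replicate 4 (5.63, nearest 5.30), Ltbp3 was high on WT normal replicate 1 (4.94, nearest 4.42), and Tnxb was low on WT normal replicate 5 (0.51, nearest 1.00).

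For 6 genes the KO2 minus WT difference differed between the diets by the interaction term: Eln by −2.21, Fbn1 by −2.33, Fbln2 by −1.96, Postn by −2.46, Sparc by −1.34 and Bgn by −1.86 on the log2 scale. An effect of diet and one of array set cannot be told apart.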

How the results depend on the processing

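On low iodine, 17 of the 23 lower genes kept their call in every alternative run for them. Genes called over the whole array numbered 1642 with median scaling and 1673 with only the compared arrays, against 2687, with 1 of the 40 genes higher under median scaling (Ltbp2), and the median of the 40 was −0.7466 with normexp. Uncalled genes changed sign: Fbn2 0.1385 and Vtn 0.1437 with median scaling; Ltbp1 −0.1544, Tnc −0.02842, Sparcl1 −0.1263 and Thbs3 −0.1114 without scaling; Sparcl1 −0.01785 and Vtn 0.07599 with quantile normalization; Ltbp1 −0.1197 with the mean of probes. With each array left out in turn, Fbn2 ran from −0.09009 to 0.09306, Thbs3 from −0.02369 to 0.3063 and Vtn from −0.2698 to 0.2107, and 19 to 23 genes were lower.

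On the normal diet, lower genes numbered 1 with median scaling, 7 without scaling, 5 with normexp, with the filter on all 18 arrays or with slide as a random block, and 0 with only the compared arrays, where 3 genes of the array were called against 249. Leaving out arrays gave 1 to 7 lower genes and 123 to 675 called genes, 675 without KO2 replicate 4 and 123 to 160 without KO2 replicate 1, 3 or 5 or WT replicate 2 or 5. The interaction called 90 genes with median scaling, 131 without scaling and 709 with quantile normalization against 219, and 2 of the 40 with median scaling and 13 with quantile normalization against 6. Leaving out arrays gave 131 to 230 called genes, 131 to 141 without KO2 normal replicate 2, WT normal replicate 3 or 4, KO2 low-iodine replicate 4 or WT low-iodine replicate 1, 3 or 4.

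Between the diets, WT had 7 higher genes and a median of −0.8626 with median scaling, 9 and −0.2122 without scaling, and −0.3164 with the filter on all 18 arrays. KO2 had 3 and −1.802 with median scaling, and medians of −1.435 without scaling, −0.4282 with normexp and −0.4767 with the mean of probes.

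Scaling moved the low-iodine median of all genes from −0.02 to 0.13 (median scaling) or −0.29 (none); relative to it the 40 genes stood at −1.14 in each, −1.34 with quantile normalization and −0.65 with normexp. Of all calls 47.9% were lower on low iodine, 86.5% without scaling. On the normal diet 63.1% were lower, with 73.1% under median scaling and 90.6% without scaling. In the interaction 70.8% were lower, with 60% under median scaling, 89.3% without scaling and 60.4% under quantile normalization. Between the diets 48.1% of calls in WT and 49.6% in KO2 were lower, with 69.3% and 68.5% under median scaling and 56% and 60.9% without scaling. With the replicate block, 160 genes were called on the normal diet, and 23, 3 and 5 of the 40 genes were lower on low iodine, on the normal diet and in the interaction. On low iodine replicates 1 and 4 of 4, and on the normal diet replicates 2 and 5 of 5, correlated best with their own number. The cause of these changes was not tested. Normexp on mean signals was not run, and it used median signals in their place, a choice made after seeing the data. Dim genes (Fbln5, Fbn2, Vcan, Thbs2, Comp) are limited by signal over background.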
